A study of Rattus norvegicus with 6 samples.

Results

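The genes described here encode the junctions that join one cardiomyocyte to the next: the connexins Gja1, Gja5 and Gjc1, the adherens junction genes Cdh2, Ctnnb1 and Vcl, and the desmosomal genes Dsp, Jup, Pkp2 and Dsg2. They were found on the array by matching the accession of each probe to the rat gene table of the GRCr8 assembly. Probes matched 8 of the 10 genes, and the probes were 10 of the 45572 that had a value on every array. No probe matched Dsp or Dsg2, which are not analysed here. Gja5 and Cdh2 had 2 probes each, and for these the probe with the higher mean signal represents the gene.

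In the ventricle, gap junctions carry current and small molecules between neighbouring cells through channels built from connexins. Adherens junctions tie the contractile filaments of one cell to those of the next through N-cadherin and its catenins, and desmosomes anchor the intermediate filaments. The heart holds all of these at the intercalated disc, and inherited faults of desmosomal genes are a known cause of arrhythmogenic cardiomyopathy. Neonatal cardiomyocytes in culture form the same junctions, but around the cell border rather than in ordered discs.

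Neonatal rat ventricular cardiomyocytes (NRVCs; NRVMs in the sample records) were taken from Sprague-Dawley rats of 1 to 2 days, with the hearts of 8 to 10 rats in a preparation, and were preplated before culture in a serum-free medium. Control cultures had the medium without C3a, and C3a cultures had recombinant C3a, a fragment of complement C3, at 0.5 µg/ml for 12 h. The methods of the study name a short serum starvation before C3a, which both groups would share. RNA of 3 control and 3 C3a samples was hybridised to 1 Cy3-labelled Agilent array each, and the comparison asks which junction genes differ in cardiomyocytes exposed to C3a.

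All 6 arrays lay on 1 slide, and nothing in the records says that the 3 samples of a group came from separate preparations, so that p-values measure the spread between these samples, which may be technical. Between 38.6% and 57.3% of probes were well above background per array, the lowest share being that of control replicate 1, and the number of arrays limits the precision. Each value below is the log2 ratio of a signal to the 75th percentile over all probes on that array, so that 1 unit is a doubling, and it describes a probe across arrays and not one gene against another. Cardiomyocyte identity was checked on 15 marker genes, among them Tnnt2, Myh6 and Actc1, and all 15 were well above background on all 6 arrays. Their summed signal, in multiples of the 75th percentile, was 6246 to 8031 in the controls and 7736 to 8783 with C3a. Other cells were present in these cultures by their markers, and since the RNA is bulk, fewer cells of a type and less RNA per cell cannot be told apart.

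Across the 8 genes with a probe, C3a made no difference that passed the test. All 8 were well above background on all 6 arrays, and none was saturated. Of the 8, 0 had an adjusted p under 0.05 from limma, where adjusted p ranged from 0.743 to 0.998, and the share of all 23438 tested probes with an adjusted p under 0.05 was 0%. At an unadjusted p under 0.05 from limma 2 of the 8 were called, Cdh2 higher and Gjc1 lower, beside 5.82% of all tested probes (3.34% higher and 2.48% lower). The test named in the methods, run on the same values, called 1 of the 8 before adjustment and 0 after it. The difference was above 0 for 3 of the 8 genes, beside 62.3% of all tested probes. The median log2 difference was -0.067 over the 8 genes and 0.048 over all tested probes. A probe was tested if it was well above background on all 3 arrays of either group. By this rule 17519 probes passed in the controls and 23425 with C3a. Shares of all tested probes, here and below, therefore include probes that passed with C3a only. The count in the controls cannot exceed that of control replicate 1, where 38.6% of probes were well above background, beside 53.7% to 57.3% on the other arrays. The median local background of that array was 47, beside 23 or 24 on the others. Over the 17506 probes that passed on each of the 6 arrays, as the 8 genes did, the median was 0.040. With no filter it was -0.10. The share above 0 is not given for either set.

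Differences of both signs were seen among the 8 genes. The 3 C3a arrays lay above all 3 controls for Gja5, Cdh2 and Pkp2 and below them for Gjc1, so that 4 of 8 did not overlap, beside 12.5% of all tested probes (8.04% above and 4.46% below). That number was 2 after quantile normalization, 2 when that percentile came from the probes seen on all 6 arrays, and 0 without scaling between arrays or with scaling to spike-in transcripts. The share of all tested probes is not given for these alternatives. The 4 other genes, Gja1, Ctnnb1, Vcl and Jup, overlapped between the groups.

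**Figure D1:**
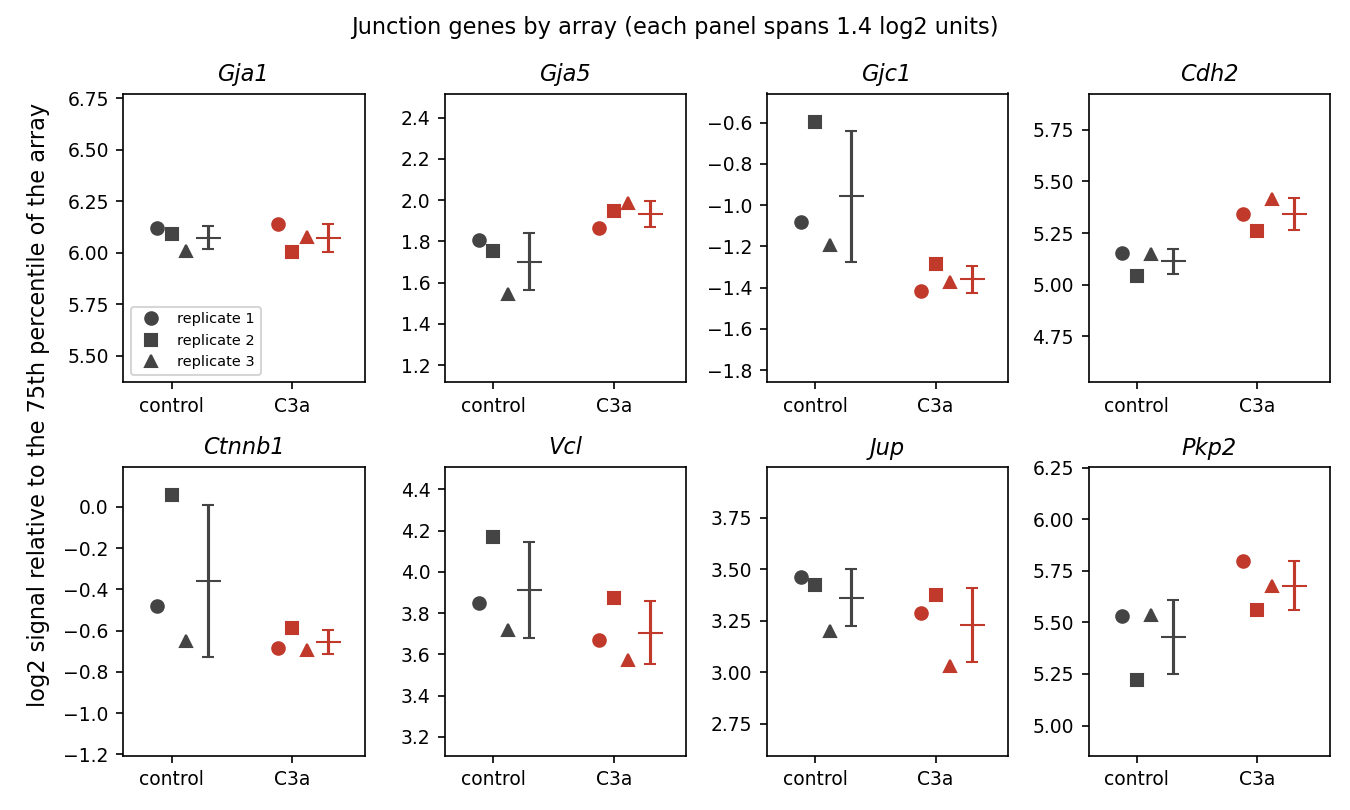
Log2 ratio of the signal to the 75th percentile over all probes on that array for the 8 genes with a probe, in 3 control (grey) and 3 C3a (red) arrays; circles, squares and triangles are replicates 1, 2 and 3, and the bar beside them is the mean with the SD (n = 3). The groups are apart for Gja5, Gjc1, Cdh2 and Pkp2, and control replicate 2 is the highest array for Gjc1, Ctnnb1 and Vcl.

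The connexins were examined first. Gja1 encodes the main gap junction protein of working ventricular muscle. Its signal was 6.12, 6.09 and 6.01 in the controls and 6.14, 6.002 and 6.07 with C3a. The ranges of the groups lay over each other, and the spread within a group was larger than the difference of the means. Gja1 averaged 6.07 ± 0.057 (SD, n = 3) in the controls and 6.07 ± 0.068 (SD, n = 3) with C3a. The log2 difference was -0.0012 (standard error 0.092, adjusted p = 0.998 from limma), with a 95% interval from -0.22 to 0.22, or from 0.859-fold to 1.16-fold. Without scaling between arrays, the difference was -0.33.

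Gja5 encodes a connexin known from atrial muscle, the conduction system and arterial endothelium. Its brighter probe read 1.81, 1.75 and 1.55 in the controls and 1.86, 1.95 and 1.99 with C3a. Every C3a array was above every control, by a small margin between control replicate 1 and C3a replicate 1. The log2 difference was 0.23 (standard error 0.11, adjusted p = 0.743 from limma), and the two-sided exact permutation test gave p = 0.1, the smallest that 3 against 3 arrays allow. The second Gja5 probe pointed the other way. It read -0.70, -0.32 and -1.01 in the controls and -0.92, -0.74 and -1.21 with C3a, a log2 difference of -0.28 (standard error 0.20, adjusted p = 0.743 from limma). The probes of Gja5 therefore disagreed in sign, neither passed the test, and their mean differed by -0.024, so no direction is given for this gene.

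Gjc1 encodes a connexin prominent in the embryonic heart and in nodal tissue. Its signal was -1.08, -0.60 and -1.19 in the controls and -1.42, -1.29 and -1.37 with C3a. The C3a arrays were close together and below all controls, among which control replicate 2 was far above the others. For Gjc1 the log2 difference was -0.40 (standard error 0.16), a ratio of 0.757 with a 95% interval from 0.580 to 0.989. The unadjusted p from limma was 0.0435 and the adjusted p 0.743. Without control replicate 2 the difference was -0.22, with normexp background correction -0.20 and with array weights -0.23.

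A difference between genes within an array does not depend on scaling by 1 factor per array, but it can change with quantile normalization or background correction. After quantile normalization, C3a minus control was -0.40 for Gjc1 and -0.12 for Gja1. Under the reported scaling, Gjc1 minus Gja1 was -7.20, -6.69 and -7.20 in the controls and -7.56, -7.29 and -7.45 with C3a. The C3a arrays did not overlap the controls, and the means differed by -0.40 log2 units. Control replicate 2, at -6.69, again stood apart from the other controls and adds to that size. Under that scaling Gja1 differed by only -0.0012, so this difference largely repeats that of Gjc1 alone. This pair of genes was chosen after the values were seen and is given without a test. Other pairs were also taken and are not shown.

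The promoters of Gja1 and Gja5 are shown because they are the connexins for which RefSeq promoter sequence was held. Such sequence was found for 5 of the 8 genes (Gja1, Gja5, Ctnnb1, Jup and Vcl). The 250 bases before each start site were searched on both strands for TATAAA, the letters of a TATA box, GGGCGG, those of a GC box, TGANTCA for AP-1, AGGTGT for T-box factors and CTTTGAT for the TCF/LEF factors. Capitals mark a match, and no match overlaps one of another motif in the sequences printed.
Gja1, GRCr8, chr20:36302314-36302563, plus strand: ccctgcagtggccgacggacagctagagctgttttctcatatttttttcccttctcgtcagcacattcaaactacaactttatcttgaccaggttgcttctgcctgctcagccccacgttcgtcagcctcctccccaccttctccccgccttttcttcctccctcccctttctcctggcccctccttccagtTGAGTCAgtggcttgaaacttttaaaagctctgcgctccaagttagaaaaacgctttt
Gja5, GRCr8, chr2:187290977-187291226, plus strand: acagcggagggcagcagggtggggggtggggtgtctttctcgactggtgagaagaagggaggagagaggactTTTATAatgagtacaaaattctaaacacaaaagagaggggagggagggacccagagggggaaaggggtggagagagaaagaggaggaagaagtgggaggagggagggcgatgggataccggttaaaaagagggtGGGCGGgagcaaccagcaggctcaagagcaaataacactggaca
The Gja1 window holds 1 AP-1 sequence, which 6.36% of all 27457 promoter windows hold, and no GC box. The Gja5 window holds 1 TATAAA match, on the opposite strand (TTTATA as printed) and not next to the start site. Such a match on either strand is in 13.1% of all windows. It also holds 1 GC box, as do 32.4%. A match describes the letters only, and the arrays do not measure binding.

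The adherens junction genes were examined next. Cdh2 encodes N-cadherin, the cadherin that joins cardiomyocytes. Its brighter probe read 5.15, 5.04 and 5.15 in the controls and 5.34, 5.26 and 5.42 with C3a. All C3a arrays were above all controls, and arrays of a group lay within 0.2 log2 units of each other. For this probe the log2 difference was 0.23 (standard error 0.094), or 1.17-fold with a 95% interval from 1.00 to 1.36, with an unadjusted p of 0.0469 and an adjusted p of 0.743 from limma.

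The second Cdh2 probe gave a similar reading. It was 2.70, 2.77 and 2.72 in the controls and 3.06, 2.84 and 2.90 with C3a, again without overlap, and its log2 difference was 0.20 (standard error 0.099, adjusted p = 0.743 from limma). The 2 probes were read on the same 6 arrays and are not independent samples. The sign of the brighter probe depended on the scaling, being -0.099 without scaling between arrays, where the median of all probes was -0.28, and -0.23 with spike-in scaling, where it was -0.41. Relative to the median of all probes the value was above 0 in all 19 alternatives, not all of which could change it. It was 0.18 under the reported scaling, without scaling and with spike-in scaling, since 1 factor per array leaves it unchanged. With quantile normalization it was 0.092.

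Ctnnb1 encodes β-catenin, which links cadherins to the cytoskeleton and also acts in Wnt signalling. It read -0.48, 0.058 and -0.65 in the controls and -0.68, -0.59 and -0.69 with C3a. The C3a arrays were tightly grouped at the lower end of the controls and overlapped with control replicate 3. Between the means lay a log2 difference of -0.30 (standard error 0.18, adjusted p = 0.743 from limma). Without control replicate 2 it was -0.088, and with array weights -0.083.

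Vcl encodes vinculin, which couples actin filaments to adherens junctions and to focal adhesions. It read 3.85, 4.17 and 3.72 in the controls and 3.67, 3.88 and 3.57 with C3a. The groups overlapped, and control replicate 2 was again the highest array. For Vcl the log2 difference was -0.21 (standard error 0.15, adjusted p = 0.743 from limma). This became -0.076 when control replicate 2 was left out and -0.034 with array weights. Of 13 target genes of β-catenin signalling, 5 had a tested probe and 0 had an unadjusted p under 0.05, beside 5.82% of all tested probes, a count too small to read. Ccnd1 and Myc, which promote the cell cycle, differed by -0.062 and -0.0099 on the log2 scale (adjusted p = 0.891 and 0.978 from limma).

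Of the desmosomal genes, Jup encodes plakoglobin, a relative of β-catenin that binds desmosomal cadherins. It read 3.46, 3.42 and 3.20 in the controls and 3.29, 3.37 and 3.03 with C3a. The groups overlapped widely, and replicate 3 was the lowest array in each of them. The log2 difference was -0.13 (standard error 0.13, adjusted p = 0.772 from limma), and -0.032 without C3a replicate 3.

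Pkp2 encodes plakophilin 2, which ties desmosomal cadherins to desmoplakin. It read 5.53, 5.22 and 5.53 in the controls and 5.80, 5.56 and 5.68 with C3a. The lowest C3a array, replicate 2, was only just above the highest control. The log2 difference was 0.25 (standard error 0.13), or 1.19-fold with a 95% interval from 0.968 to 1.46, with an adjusted p of 0.743 from limma. It was 0.15 without control replicate 2, -0.075 without scaling between arrays and -0.21 with spike-in scaling.

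**Figure D2:**
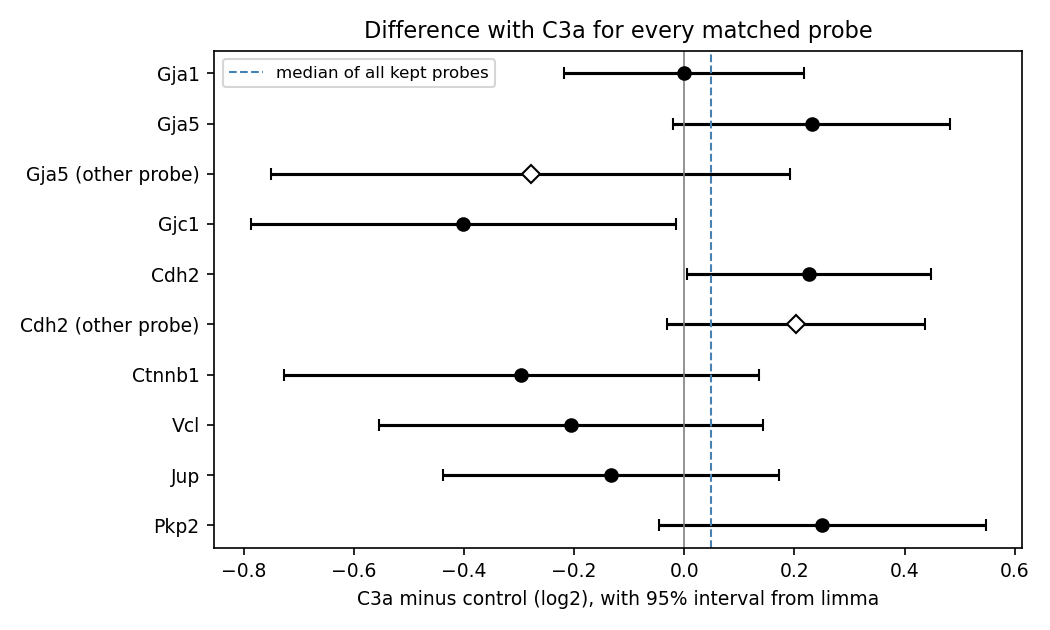
Log2 difference between C3a and control for the 10 probes of the 8 genes, with 95% intervals from limma; filled circles are the representative probes, open diamonds the second probes of Gja5 and Cdh2, and the dashed line is the median of all tested probes, 0.048. The intervals of Gjc1 and of the brighter Cdh2 probe leave out 0, and the probes of Gja5 lie on opposite sides of it.

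Control replicate 2 stood apart from the other controls for several of these genes. Its signal was above the mean of controls 1 and 3 by 0.62 log2 units for Ctnnb1, 0.54 for Gjc1 and 0.39 for Vcl. It was below that mean by -0.31 for Pkp2 and -0.11 for Cdh2, and the median over all tested probes was -0.071. When this array was left out, 0 of the 8 genes were called at an unadjusted p under 0.05. The number was also 0 without any 1 of the 3 C3a arrays, 1 without control replicate 1 and 2 without control replicate 3.

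Arrays with the same replicate number deviated together over all tested probes, so differences within equal numbers were also taken. For Gjc1 these were -0.34, -0.69 and -0.18, and for Cdh2 0.19, 0.22 and 0.27. For Pkp2 they were 0.27, 0.34 and 0.14. In all, 7 of the 8 genes had one sign in all 3 pairs, 3 of them above 0 (Gja5, Cdh2, Pkp2) and 4 below (Gjc1, Ctnnb1, Vcl, Jup), beside 38.9% of all tested probes. For Gja5 this is the brighter probe, from which the second probe differed in sign. With the replicate number as a block, limma gave 0 of 8 genes an adjusted p under 0.05, the smallest being 0.294, and 3 of 8 (Gjc1, Cdh2 and Pkp2) an unadjusted p under 0.05, beside 13.6% of all tested probes in that fit.

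The other genes of cell junctions were described from lists, with 34 of 76 genes having a tested probe. Of these 34, 0 had an adjusted p under 0.05 from limma, and 2 (both lower with C3a) had an unadjusted p under 0.05, beside 5.82% of all tested probes (2.48% lower), so the count of these genes is near the background. Their median log2 difference was 0.020, beside 0.048 over all tested probes. Both are in the list of other intercalated disc genes, of which 20 of 24 were tested, and they are described because the naming rule takes them.

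Ctnna1 encodes α-catenin, the link between β-catenin and actin. It read 3.41, 4.03 and 3.36 in the controls and 3.12, 3.27 and 3.06 with C3a. All C3a arrays were below all controls, and control replicate 2 was the highest, as for Ctnnb1 and Vcl. The groups differed by -0.45 (standard error 0.19, unadjusted p = 0.0470 and adjusted p = 0.743 from limma), and -0.24 without control replicate 2.

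Xirp2 encodes an actin-binding protein of the disc. It read -1.59, -1.49 and -2.13 in the controls and -2.76, -1.95 and -2.52 with C3a, with control replicate 3 inside the C3a range. Xirp2 differed by -0.67 (standard error 0.25, unadjusted p = 0.0302 and adjusted p = 0.743 from limma), and it ranged from -0.90 to -0.50 when each array was left out. With normexp background correction it was -0.33 and with array weights -0.36. Among the rest of this list, Vasp and Afdn lay above the controls on all C3a arrays and Actn1 below, and these 3 are named after their values were seen.

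**Figure D3:**
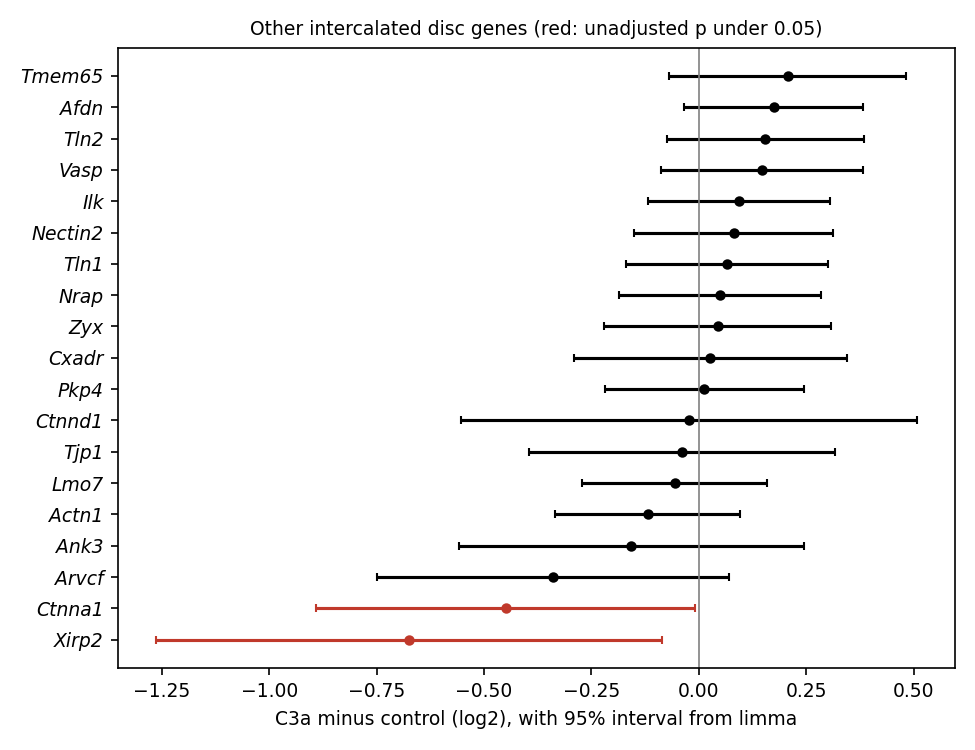
Log2 difference between C3a and control for 19 of the 20 tested genes of the list of other intercalated disc genes, with 95% intervals from limma, ordered by the difference. The intervals of Ctnna1 and Xirp2, in red, leave out 0, and the differences of these 19 genes range from -0.67 to 0.21.

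Of 20 further connexins and pannexins, 17 had a probe and 11 of these, among them Gjb1, were not well above background on any array. The 5 tested ones differed little, and Gja3, a lens connexin, and Panx2 showed log2 differences of 0.073 and -0.091 (adjusted p = 0.843 and 0.831 from limma). Of 10 other desmosomal genes only Perp, a membrane protein of desmosomes, was tested, with a log2 difference of 0.082 (adjusted p = 0.797 from limma) that became -0.037 after quantile normalization. Epithelial desmosomal genes such as Pkp3 and Dsc3 were not well above background on any array. Of 9 other cadherins, Cdh1, the epithelial cadherin, was well above background on 0 of 6 arrays, and Cdh5 of endothelium and Cdh13 differed by 0.26 and 0.11 (adjusted p = 0.743 and 0.761 from limma). Leaving out each array gave 0.13 to 0.37 for Cdh5 and 0.048 to 0.17 for Cdh13.

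Several of the 8 genes are also known from other cells, so markers of those cells were read on the same arrays. Gja1, Cdh2 and Vcl are known from fibroblasts, where 10 of 10 markers were tested and their summed signal was 98.8 to 112 multiples of the 75th percentile in the controls and 97.7 to 114 with C3a. Gja5 is known from endothelium, where 5 of 8 markers were tested, Cldn5 was well above background on 0 of 6 arrays, and the summed signal was 33.1 to 45.8 in the controls and 42.2 to 53.4 with C3a. These ranges overlapped between the groups. Each sum follows its few brightest markers. For fibroblasts, 2 markers averaged 5.36 and 5.72 on the log2 scale in the controls, while others lay below 0, such as Lum at -3.04. Jup and Pkp2 are known from epicardial and mesothelial cells, where 6 of 8 markers were tested and the summed signal was 17.1 to 20.6 in the controls and 16.5 to 20.4 with C3a. The sums were 5.67 to 7.06 against 5.62 to 6.14 for macrophage markers, with C1qa and Cd163 not well above background on any array, and 46.0 to 53.5 against 50.3 to 52.5 for smooth muscle markers.

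The median log2 difference of the marker genes was 0.16 for cardiomyocytes (12 of 15 above 0) and 0.14 for endothelium (4 of 5). It was 0.086 for epicardial and mesothelial cells (4 of 6) and 0.063 for macrophages (2 of 4). For smooth muscle it was -0.029 (2 of 5) and for fibroblasts -0.043 (2 of 10), beside 62.3% of all tested probes. Only 2 of the 4 macrophage and 3 of the 6 epicardial and mesothelial genes were well above background on all 6 arrays. For fibroblasts this held for 7 of 10 genes and for smooth muscle for 4 of 5. Those 2 macrophage genes differed by -0.16 and -0.088. Control replicate 2 was the lowest control for most cardiomyocyte markers, such as Tnnt2 (9.58 beside 9.99 and 9.92), and the highest for the others. Among the marker genes of these 6 lists, Lum, a fibroblast gene named after its value was seen, was the one with an unadjusted p under 0.05 from limma (log2 difference -0.54, adjusted p = 0.743). Lum was well above background on only 2 of 3 controls, so it was tested through the C3a arrays. With normexp background correction its log2 difference was -0.13. The part of cell composition in the values of the junction genes was not tested.

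**Figure D4:**
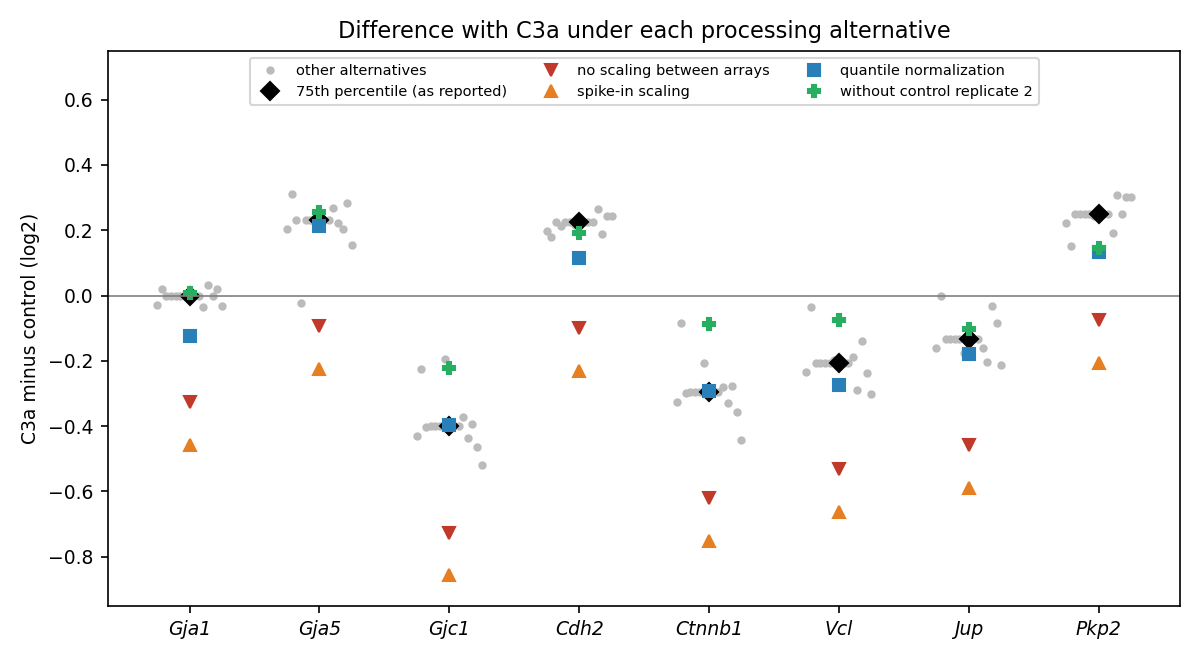
Log2 difference between C3a and control for the 8 genes under the reported scaling (black diamonds) and 19 processing alternatives, of which no scaling between arrays, spike-in scaling, quantile normalization and the fit without control replicate 2 are marked. Gja5, Cdh2 and Pkp2 fall below 0 without scaling and with spike-in scaling. Gjc1, Ctnnb1 and Vcl are below 0 in every alternative, several of which alter only the test or the filter. Without scaling and with spike-in scaling, all differences are lower by the same amount (median -0.28 and -0.41), so negative ones stay negative.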

How the data were processed

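Gene expression was measured in 3 control and 3 C3a samples, whose titles give the group and a replicate number. Per the file headers, the authors deposited the intensity of each spot from Agilent Feature Extraction 11.5.1.1, with the local background subtracted and no scaling applied across the arrays. A log2 table of 36638 probes that the authors deposited was set against the values used here. On every array it correlated with them across probes at r of at least 0.99999 and lay within 0.0062 of them at the median, with no sign of centring.

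Control spots (4259 of 62976) and spots with an outlier flag were left out, and spots of a probe were averaged. A probe counted as detected if 50% or more of its spots were flagged as well above background. The 23438 probes that met this on all 3 arrays of a group were tested with limma 3.58.1 in R 4.3.3 (two-sided, Benjamini-Hochberg over all of them), on the log2 ratio of intensity to the 75th percentile over all probes. Accessions of 21092 of 45572 probes (46.3%) gave 16575 gene names. The limma step was tested on simulated data.

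The genes and lists were chosen with earlier results of these data known, and the 5 promoter motifs after the values were seen. All 8 genes with a probe are named, and 2 genes of the other lists are counted but not reported here by name. Of the other junction lists, genes at an unadjusted p under 0.05 and the 2 with the largest change per list among genes well above background on all 6 arrays are named, as are the 3 genes most like Gja1. Normexp correction (offset 50) used the median spot signal, and spike-in scaling 7 E1A probes. Deviations from the group means correlated at 0.28, 0.32 and 0.31 for arrays of equal replicate number and at -0.26 to -0.093 for others. Deviations cancel within a group, so positive values for equal numbers make the others negative on balance, and those add nothing. The pairing rests on the values for equal numbers, which come from these same data.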

Additional observations from a re-analysis of the deposited data

How the results depend on the processing

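The counts of genes with an adjusted p under 0.05 were 0 of 8 under all 19 alternatives. Gjc1, Ctnnb1 and Vcl kept a negative difference in all 19, but not its size. Several alternatives could not change the sign. The variance trend, the methods' test, the replicate block and the changes of filter left the difference as it was (-0.40 for Gjc1 in each). No scaling and spike-in scaling lower the differences of all probes by the same amount (median -0.28 and -0.41, beside 0.048). A negative difference cannot turn positive there, while a small positive one can turn negative. Normexp gave -0.20 for Gjc1, -0.33 for Xirp2 and -0.047 for Panx2. Array weights gave -0.23 for Gjc1, -0.083 for Ctnnb1, -0.034 for Vcl, 0.15 for Pkp2, -0.25 for Ctnna1, -0.36 for Xirp2 and 0.083 for Cdh5. Quantile normalization gave 0.11 for Cdh2, 0.13 for Pkp2 and 0.069 for Cdh13. Gja1 turned to 0.021 with array weights, and Jup to 9.2e-05. Without scaling between arrays the log2 difference was -0.094 for Gja5, -0.099 for Cdh2, -0.075 for Pkp2, -0.25 for Gja3, -0.24 for Perp, -0.068 for Cdh5 and -0.21 for Cdh13. With spike-in scaling it was -0.22, -0.23, -0.21, -0.38, -0.37, -0.20 and -0.34 for the same genes. The median over all probes was -0.28 and -0.41 in these settings. The mean of its probes gave -0.024 for Gja5, quantile normalization gave -0.037 for Perp, and array weights gave 0.028 for Myc. The cause was not tested.

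Leaving out each array gave -0.035 to 0.034 for Gja1, 0.15 to 0.28 for Gja5, -0.52 to -0.22 for Gjc1, 0.19 to 0.27 for Cdh2, -0.44 to -0.088 for Ctnnb1, -0.30 to -0.076 for Vcl, -0.21 to -0.032 for Jup and 0.15 to 0.31 for Pkp2. It gave -0.00064 to 0.12 for Gja3, -0.14 to 0.059 for Ccnd1 and -0.053 to 0.029 for Myc, -0.16 to -0.0056 for Panx2 and 0.041 to 0.10 for Perp.

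The 2 genes called at an unadjusted p under 0.05 became 0 with quantile normalization, the percentile over probes detected on all arrays and no filter on dim probes. Their number was 1 with spike-in scaling, array weights and the methods' test. It was 3 with normexp and with detection on all 6 arrays, 4 with a variance trend, and 0 to 2 without each array. Of all 23438 tested probes, 1364 were called in the main fit, 985 with normexp, 1512 with a variance trend and 709 to 2139 without each array. The 4 genes without overlap became 2, 0, 2 and 0 with quantile normalization, no scaling, the percentile over detected probes and spike-in scaling, and 4 to 6 without each array. With an array left out, groups of fewer arrays separate more easily, so 4 to 6 cannot be set against the 4 of all arrays. The share of all tested probes without overlap is not given for these settings. The 2 other junction genes called before adjustment became 4 without scaling, 3 with spike-in scaling and with a variance trend, and 0 without a filter. Their number was 1 with quantile normalization, the percentile over detected probes, normexp, array weights and the methods' test, and 0 to 3 without each array. The replicate block, with the numbers as pairs, changed no adjusted call (smallest adjusted p = 0.294 from limma) and gave 3 of the 8 genes and 3 of the 34 other junction genes an unadjusted p under 0.05, beside 13.6% of all tested probes. All arrays shared 1 slide and 1 scan, so neither could be a block.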

Other observations

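The genes whose signal followed Gja1 most closely over the 6 arrays were Wdr5 and Fzd1, with a Pearson correlation of 0.96 each, and Leo1 with 0.95. They were the highest of 8548 genes well above background on all 6 arrays. Fzd1 encodes a receptor for Wnt ligands. All values share the same 6 arrays and their scaling, and Gja1 itself varied by little, so these are descriptions.

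The promoters of Jup and Vcl had a GC content of 68.8% and 68.4% over the 250 bases before the start site, above the upper quartile of 60.8% of all 27457 promoters. Those of Gja5, Gja1 and Ctnnb1 had 54.8%, 51.2% and 49.2%, near the median of 52.0%. The Vcl window held 4 GC boxes and that of Jup 1, and Ctnnb1 held 1 T-box half-site, as did 11.4% of all promoters. No TCF/LEF site was found in any of the 5, and only 3.18% of all promoters held one, so its absence is usual.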
